A study of Mus musculus with 22 samples.

Results

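Serotonin genes were examined in the distal colon of mice with a chronic colitis that arises without treatment. The 10 genes were taken by symbol from a table of 46078 genes, and each symbol matched once. They were Tph1, Tph2, Ddc, Maoa, Maob, Slc6a4, Htr3a, Htr4, Htr2b and Htr1b, which make, move, sense and break down serotonin. Poly(A) RNA of 22 mice was sequenced: 8 C57BL/6 control mice (4 males, 4 females, 14 weeks old), 7 Winnie mice (3 males, 4 females, 14 weeks old) and 7 Winnie mice with prolapse, called Winnie-Prolapse (4 males, 3 females, 18 weeks old). The study's text counts fewer Winnie mice than the labels do, and all 7 labelled ones were used. Winnie mice carry a missense mutation of the mucin gene Muc2, and no group received an agent. Age goes with prolapse, so that the effects of prolapse and of age cannot be told apart in either comparison that uses the Winnie-Prolapse mice.

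Most of the serotonin of the body is made in the gut, in enterochromaffin cells, a kind of hormone-secreting epithelial cell. The hydroxylase Tph1 makes 5-hydroxytryptophan in these cells, its paralog Tph2 does so in neurons, and Ddc then removes a carboxyl group to give serotonin. The transporter Slc6a4 (SERT) carries released serotonin back into cells, the monoamine oxidases Maoa and Maob start its breakdown, and receptors on nerve endings, smooth muscle and epithelium turn it into secretion and peristalsis.

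Libraries held 24.8 to 36.3 M counts. Levels are given as CPM, counts scaled to the library total, and 3 counts, the upper limit for a gene with no count, corresponded to 0.0825 to 0.121 CPM. Such limits cover counting error only. Each library was labelled as its own mouse, so that the p-values measure the spread between these mice. Some libraries stood apart in genes outside the pathway. C57BL/6 replicate 7 held 103 CPM of 4 genes of the distal colon (Hoxd13, Hoxd12, Hoxa13, Hoxb13), where the other controls held 654 to 937 CPM, and 27.3 CPM of 6 leukocyte markers, where they held 287 to 488 CPM. The 7 Winnie-Prolapse libraries held 339 to 582 CPM of the 4 position genes, all below these other controls, and the Winnie libraries 559 to 778 CPM (median log2 fold change over the 4 genes −0.44 in Winnie-Prolapse and 0.03 in Winnie against C57BL/6). The part of position along the colon in the serotonin gene changes was not tested. Milk protein genes made up 18.0% of the counts of Winnie-Prolapse replicate 6. In Winnie-Prolapse replicates 2, 4, 5, 6 and 7, markers of squamous epithelium summed to 170.2 to 2635 CPM, against 1.51 and 3.97 CPM in the other 2 libraries and 1.88 to 2.90 CPM in C57BL/6. Winnie replicate 2 held 47.8 CPM of them, where the other Winnie libraries held 1.54 to 3.11 CPM. Epcam, which marks the epithelium, was present at 1666 ± 83.9 CPM in C57BL/6 (SD, n = 8), 1636 ± 136 CPM in Winnie and 1568 ± 207 CPM in Winnie-Prolapse (SD, n = 7).

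Per kb of exon, Maoa stood first in C57BL/6 colon with 180.0 ± 26.8 CPM per kb (SD, n = 8). Ddc with 17.6 ± 4.95 and Maob with 16.02 ± 2.99 CPM per kb followed and did not differ beyond their spread. Slc6a4 lay at 8.50 ± 2.99, Htr3a at 5.65 ± 1.25 and Htr4 at 4.53 ± 1.67 CPM per kb, with neighbours apart by less than the larger of their SDs. Tph1 with 1.53 ± 0.533 and Htr2b with 1.45 ± 1.03 CPM per kb did not differ beyond their spread either, and Htr1b with 0.0509 ± 0.0401 and Tph2 with 0.00306 ± 0.00566 CPM per kb came last. In Winnie colon Maob (21.1 ± 3.21 CPM per kb, n = 7) stood above Ddc (13.4 ± 4.58), and Htr4 (4.18 ± 0.967) above Htr3a (2.498 ± 1.501), by more than 1 SD of either gene. The order of means in Winnie-Prolapse was that of Winnie, with Maoa at 85.3 ± 38.7 and Maob at 8.87 ± 3.22 CPM per kb (SD, n = 7).

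**Figure D1:**
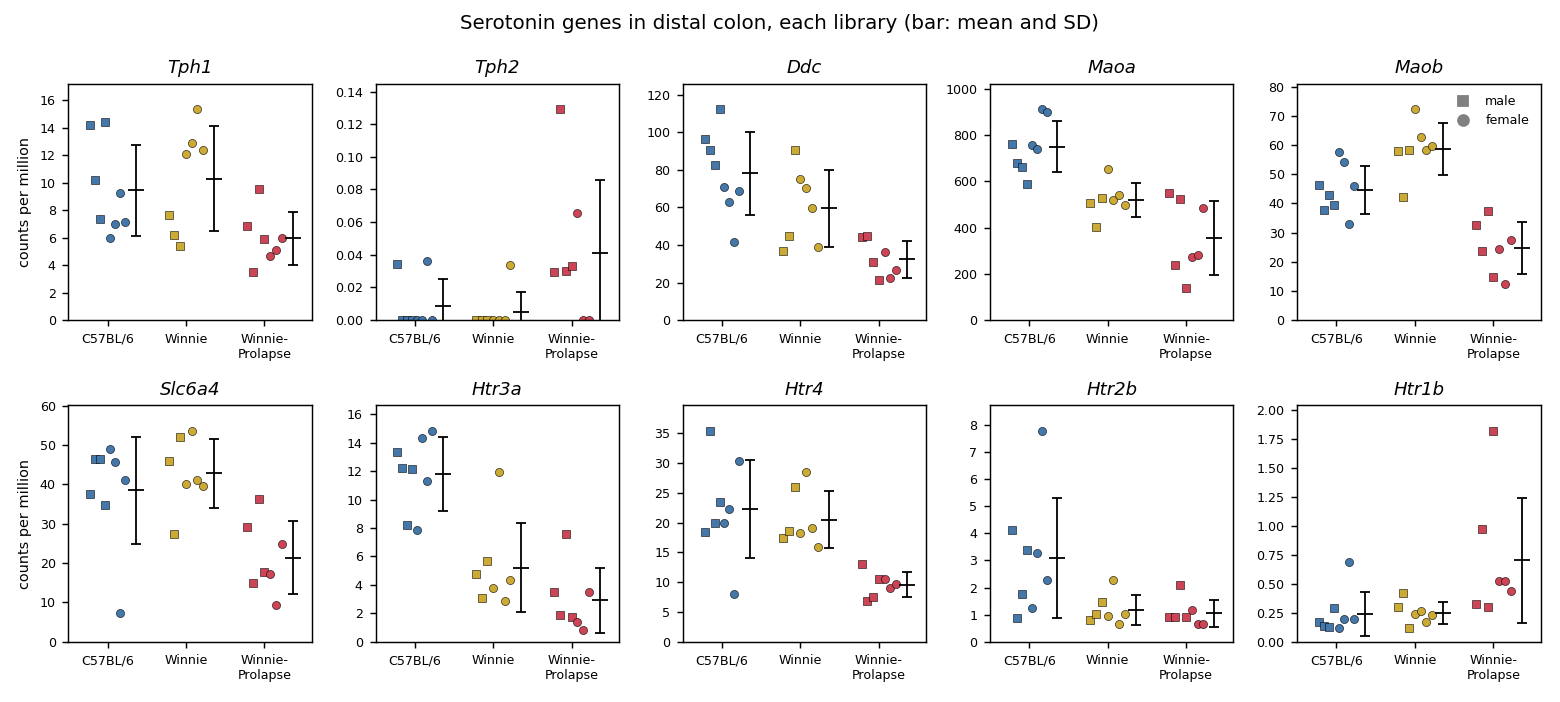
CPM of the 10 serotonin genes, 1 point for each library (squares are males, circles are females), with the mean and SD of each group. Maoa and Htr3a lie lower in Winnie-Prolapse than in every C57BL/6 library, and Maob and Htr4 lower than in every Winnie library.

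A change was called at the limits the study set, an adjusted p under 0.001 and at least 1.5-fold, in the quasi-likelihood F test of edgeR with Benjamini-Hochberg adjustment over all genes tested. A looser threshold, an adjusted p under 0.05 and at least 1.5-fold, is given beside it. Tph2 and Htr1b had too few counts for the test, so 8 of the 10 genes were tested in each comparison. With Winnie against C57BL/6, 0 of 8 were called, where 0.0925% of all 17289 genes were (0.0868% higher, 0.00578% lower). Of the 8 genes 4 had an unadjusted p under 0.05, where 39.9% of all genes did, and DESeq2 called 1, Htr3a, where it called 6.43% of the genes it gave an adjusted p. At the looser threshold 2 fell, Htr3a and Htr2b, where 15.9% of all genes were called (7.42% higher, 8.53% lower). With Winnie-Prolapse against C57BL/6, 2 of 8 were called, Ddc and Htr3a, both lower, where 18.3% of all 17397 genes were called (9.84% higher, 8.47% lower). At the looser threshold 6 of 8 fell and 0 rose (Ddc, Maoa, Maob, Htr3a, Htr4, Htr2b), where 34.4% of all genes were called (16.7% higher, 17.7% lower). Scaled by library size alone, without TMM factors, 8 of 8 passed this threshold as lower, Tph1 and Slc6a4 included, where 19.8% of all genes did. Htr4 was called as well, beside Ddc and Htr3a, with library sizes alone (17.7% of all genes called), with the 3 groups in 1 fit (20.1%) and with DESeq2 (23.2%). With Winnie-Prolapse against Winnie, 0 of 8 were called by edgeR, as were 0% of all 17041 genes in either direction, while 5 of 8 had an unadjusted p under 0.05, where 27.8% of all genes did, and DESeq2 called 2, Htr4 and Maob, where it called 3.55% of genes. At the looser threshold 4 fell (Ddc, Maob, Slc6a4, Htr4), where 6.99% of all genes were called (4.27% higher, 2.72% lower). With 1 library left out, 2 to 7 serotonin genes passed it, among 432 to 1894 genes in all (edgeR). Htr4 and Maob alone passed in 7 of 14 fits, those without Winnie replicate 3, 4, 5 or 6 or Winnie-Prolapse replicate 4, 5 or 6. Without Winnie-Prolapse replicate 3, 9 were tested and 7 passed, 6 as lower and Htr1b as higher. Htr1b had enough counts for the test in 8 of these 14 fits and passed as higher in 3. The median log2 fold change of the 8 was −0.18, −1.04 and −0.83 in the 3 comparisons, against −0.01, −0.01 and 0.01 over all genes tested. Each pair of these comparisons shares the libraries of 1 group.

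**Figure D2:**
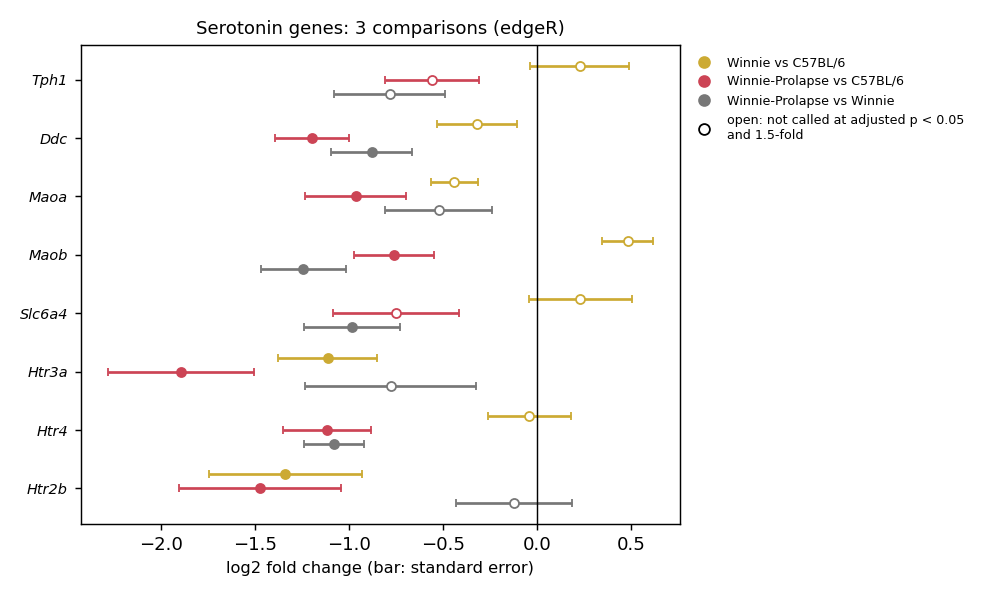
Log2 fold change with its standard error for the 8 serotonin genes tested, in 3 comparisons (edgeR). Filled points passed an adjusted p under 0.05 with at least 1.5-fold change, and all of them lie left of 0.

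Tph1 (ENSMUSG00000040046; chromosome 7, 46644641 to 46672537, minus strand), the rate-limiting enzyme of serotonin synthesis in the gut, had its lowest, median and highest values at 5.94, 8.30 and 14.4 CPM in C57BL/6, 5.398, 12.1 and 15.4 CPM in Winnie and 3.52, 5.88 and 9.53 CPM in Winnie-Prolapse. All 3 groups overlapped. The log2 fold change of Tph1 was 0.23 ± 0.27 (SE; edgeR adjusted p = 0.550) in Winnie and −0.56 ± 0.25 (adjusted p = 0.0727) in Winnie-Prolapse against C57BL/6, and −0.78 ± 0.30 (adjusted p = 0.103) in Winnie-Prolapse against Winnie, and none passed. Without Winnie-Prolapse replicate 3, the library with the most Tph1 in its group, both Winnie-Prolapse comparisons passed the looser threshold by edgeR (−0.73, adjusted p = 0.0166, and −0.98, adjusted p = 0.0384).

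In Winnie, Tph1 separated by sex. The 3 male Winnie mice had 5.398, 6.18 and 7.62 CPM of Tph1, and the 4 females 12.1, 12.4, 12.9 and 15.4 CPM. In C57BL/6 the males had 7.36, 10.2, 14.2 and 14.4 CPM and the females 5.94, 7.00, 7.12 and 9.24 CPM. Of the male Winnie mice 2 of 3 lay below every male control, and all 4 female Winnie mice lay above every female control. The labels of the 4 female Winnie mice run in 1 number sequence, which holds none of the 3 males. Sex and whatever that numbering stands for cannot be told apart in Winnie. The change from C57BL/6 to Winnie was −0.81 ± 0.26 in males on the log2 scale (SE; edgeR adjusted p = 0.0446) and 0.96 ± 0.17 in females (adjusted p = 0.152, unadjusted p = 0.000381). The difference between these changes, the sex by group interaction, was −1.78 ± 0.33 (SE; edgeR adjusted p = 0.0368, unadjusted p = 7.72e-05). It passed an adjusted p of 0.05 for 1 of 8 serotonin genes, Tph1, where 0.272% of all 17289 genes passed. At an unadjusted p under 0.05 stood 2 of 8, Tph1 and Ddc, where 18.5% of all genes did. Ddc had −0.84 ± 0.37 (SE, edgeR unadjusted p = 0.0393, adjusted p = 0.247). With 1 library left out the Tph1 interaction ran from −1.98 to −1.64 and its adjusted p from 0.0259 to 0.174, under 0.05 in 4 of 15 fits. In Winnie-Prolapse the males had 3.52, 5.88, 6.87 and 9.53 CPM of Tph1 and the females 4.67, 5.12 and 5.996 CPM, so that the sexes overlapped. Against Winnie the change was 0.06 ± 0.40 in males (SE; edgeR adjusted p = 0.980) and −1.30 ± 0.19 in females (adjusted p = 0.00481), and the interaction did not pass (1.35 ± 0.46, adjusted p = 0.325). The 3 female Winnie-Prolapse libraries were all among the 5 with squamous markers and both libraries without them were male, so that sex and squamous content cannot be told apart there. As an average over the 3 groups, sex changed 0 of 9 serotonin genes tested over all 22 libraries (edgeR, smallest adjusted p = 0.966, 0 at an unadjusted p under 0.05), where 0.0788% of all genes passed. Differences of opposite sign cancel in this average, in which Tph1 had −0.03 ± 0.24 (SE). In C57BL/6, Ddc lay at 82.5 to 112 CPM in males and 41.5 to 71.0 CPM in females, while the sexes overlapped in Winnie and Winnie-Prolapse. Sex within C57BL/6 was not tested.

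Among 14 enterochromaffin and enteroendocrine markers, 0 had the Winnie interaction at an adjusted p under 0.05 and 7 at an unadjusted p under 0.05 by edgeR, where 18.5% of all genes did. The latter count was 3 of 6 for leukocyte markers, 4 of 10 for colon epithelium markers and 3 of 6 for enzymes of the hydroxylase cofactor. It was 2 of 5 for mast cell, 1 of 12 for enteric neuron, 0 of 10 for smooth muscle, 0 of 5 for enteric glia and 0 of 3 for pacemaker cell markers. Chga, a granule protein of enterochromaffin cells, had −0.85 ± 0.25 (SE, edgeR adjusted p = 0.111) and Chgb −0.82 ± 0.24 (adjusted p = 0.105), both of the sign of the Tph1 value. Insl5, Insm1, Lmx1a, Neurod1, Pyy and Scg5 had that sign as well. Cck (3.54 ± 1.19, edgeR unadjusted p = 0.0100), Gcg, Trpa1, Sst, Fev and Tac1 had the other sign, and the median over the list was −0.42. The part of these markers in the Tph1 difference was not tested. The ratio of Tph1 to Chga had a lowest, median and highest value of 0.119, 0.159 and 0.215 in C57BL/6 and of 0.150, 0.230 and 0.300 in Winnie, 4 of 7 above every control. These 4 were the female Winnie mice (0.230, 0.260, 0.286 and 0.300). The 3 males had 0.150, 0.189 and 0.213, within the range of the controls. A difference between the sexes in this ratio was not tested, and the test below pools them. The mean ratio in Winnie was 1.42-fold that of C57BL/6 (exact permutation test of the log2 ratio, two-sided, p = 0.0146, adjusted p = 0.0438 over 18 ratio tests). It missed 0.05 over the 15 tests without Tph2, whose ratio rests on the CPM added (exact permutation, adjusted p = 0.0548), and reached an adjusted p of 0.0704 when 1 library was left out. In Winnie-Prolapse it was 1.43-fold that of C57BL/6 and missed the limit (exact permutation, adjusted p = 0.0507).

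**Figure D3:**
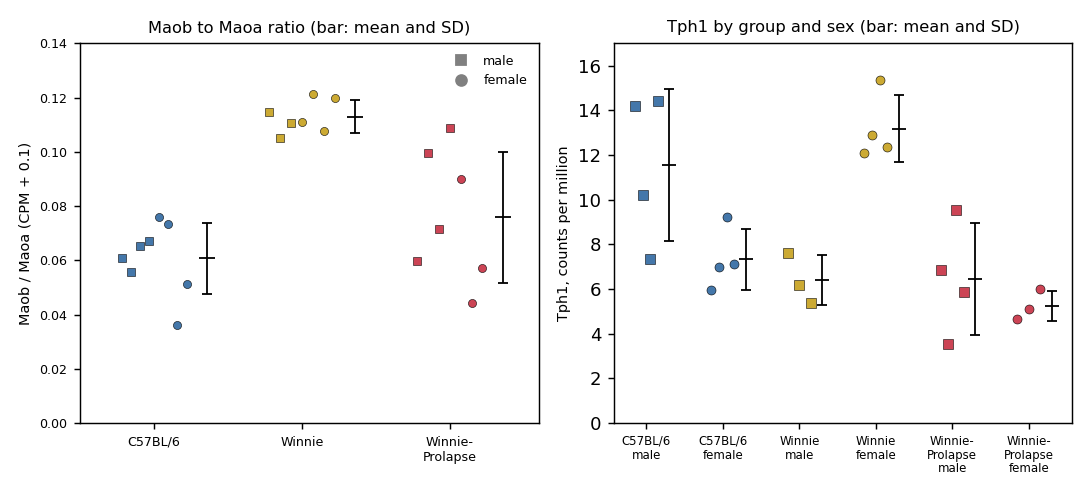
Left, the ratio of Maob to Maoa (CPM with 0.1 added to each) in each library; right, Tph1 in CPM by group and sex, with squares for males, circles for females and bars for the mean and SD. All 7 Winnie libraries lie at 0.105 or above for the ratio and all 8 C57BL/6 libraries at 0.0762 or below.

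Tph2 (ENSMUSG00000006764; chromosome 10, 115078641 to 115185022, minus strand), the neuronal hydroxylase, had 0 to 1 count in each C57BL/6 and Winnie library and 0 to 4 in each Winnie-Prolapse library. The summed counts were 2, 1 and 9 over the 8, 7 and 7 libraries. All but 1 library lay at or under the limit of 3 counts. With no low-count filter Tph2 passed no threshold, at −0.51 ± 0.89 (SE; edgeR adjusted p = 0.760) in Winnie and 1.87 ± 0.78 (adjusted p = 0.0756) in Winnie-Prolapse against C57BL/6, and 2.38 ± 0.84 (adjusted p = 0.107) between Winnie-Prolapse and Winnie. These fitted values rest on the few counts given above. The ratio of Tph2 to the neuronal gene Elavl4 differed in the 3 comparisons by 1.54, 2.76 and 1.22 on the log2 scale (exact permutation, adjusted p = 0.00787, 0.00140 and 0.0495), but its numerator was mostly the 0.1 CPM added and Elavl4 is among the neuron markers that fell.

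Ddc (ENSMUSG00000020182; chromosome 11, 11814101 to 11898144, minus strand), the decarboxylase that gives serotonin and also dopamine, had its lowest, median and highest values at 41.5, 76.8 and 112 CPM in C57BL/6, 37.0, 59.9 and 90.9 CPM in Winnie and 21.1, 30.7 and 45.0 CPM in Winnie-Prolapse. The lowest control was replicate 7, and the other controls had 63.0 CPM or more, above all Winnie-Prolapse libraries. Ddc fell 2.29-fold in Winnie-Prolapse against C57BL/6 (log2 −1.20 ± 0.20, SE; edgeR adjusted p = 0.000144), a call it kept in 15 of 15 fits without 1 library. Against Winnie it fell 1.84-fold at the looser threshold (−0.88 ± 0.22, edgeR adjusted p = 0.0275), a call it kept in 7 of 14 fits without 1 library (adjusted p up to 0.0623). The Winnie value was −0.32 ± 0.21 (edgeR adjusted p = 0.274). In bulk tissue, fewer cells that use a gene and less of its RNA in each cell cannot be told apart. The ratio of Ddc to Chga had medians of 1.40, 1.41 and 1.35 in C57BL/6, Winnie and Winnie-Prolapse, and no comparison of it passed (exact permutation, adjusted p from 0.909 to 0.999).

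Promoter sequence from RefSeq (GRCm38.p6) was found for 7 of the 10 genes. Those of Ddc and Maoa are shown, since Ddc kept its call without each library in turn and Maoa had the highest level. Each runs 5′ to 3′ from 250 bases before to 50 after a transcription start, and Ddc has 2 starts. Capitals mark the motifs searched on both strands, which were a TATA box, TATAAA (found in 13.6% of 32851 promoters of this length), a GC box, CCGCCC (35.7%) and the first letters of the HNF1 site, GTTAAT (7.10%). The upstream start of Ddc lies at chr11:11898095-11898394 on the minus strand and holds 1 TATAAA, read on the reverse strand as TTTATA. The downstream start lies at chr11:11890359-11890658, also minus, and holds none of the 3. The Maoa start lies at chrX:16619448-16619747 on the plus strand and holds 2 CCGCCC. A match is a description of the sequence and not a binding site.
Ddc upstream start: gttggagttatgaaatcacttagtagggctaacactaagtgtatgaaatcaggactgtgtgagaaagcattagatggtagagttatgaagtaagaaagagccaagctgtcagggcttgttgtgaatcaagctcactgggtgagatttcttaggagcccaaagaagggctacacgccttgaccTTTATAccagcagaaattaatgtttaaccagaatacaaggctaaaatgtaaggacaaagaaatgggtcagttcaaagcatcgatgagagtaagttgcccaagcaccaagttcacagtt
Ddc downstream start: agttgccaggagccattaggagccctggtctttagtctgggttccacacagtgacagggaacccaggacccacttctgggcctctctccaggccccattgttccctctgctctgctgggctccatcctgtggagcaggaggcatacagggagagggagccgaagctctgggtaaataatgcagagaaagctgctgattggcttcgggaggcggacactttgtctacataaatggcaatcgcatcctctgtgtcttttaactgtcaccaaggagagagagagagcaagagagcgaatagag
Maoa start: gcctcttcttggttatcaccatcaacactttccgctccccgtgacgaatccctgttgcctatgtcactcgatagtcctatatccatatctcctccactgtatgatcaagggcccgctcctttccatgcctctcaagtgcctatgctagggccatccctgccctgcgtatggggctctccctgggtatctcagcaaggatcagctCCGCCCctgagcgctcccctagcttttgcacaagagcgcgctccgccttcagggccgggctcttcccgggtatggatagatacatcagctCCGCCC

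Of the 2 oxidases, Maoa was lower and Maob higher in Winnie colon than in C57BL/6, each by less than the fold limit. Maoa (ENSMUSG00000025037; chromosome X, 16619698 to 16687818, plus strand), which prefers serotonin, had its lowest, median and highest values at 589, 749 and 913 CPM in C57BL/6, 402, 518 and 653 CPM in Winnie and 137, 283 and 549 CPM in Winnie-Prolapse. Of the Winnie libraries 6 of 7, and of the Winnie-Prolapse libraries 7 of 7, lay below every control. Maoa had a log2 change of −0.44 ± 0.12 (SE; edgeR adjusted p = 0.0195) in Winnie, a 1.36-fold difference under the fold limit, and fell 1.95-fold in Winnie-Prolapse at the looser threshold (−0.97 ± 0.27, adjusted p = 0.00712). Between Winnie-Prolapse and Winnie the value was −0.52 ± 0.28 (edgeR adjusted p = 0.248).

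Maob (ENSMUSG00000040147; chromosome X, 16709282 to 16817366, minus strand), which prefers phenylethylamine, faces Maoa tail to tail across a gap of 21.5 kb. Its lowest, median and highest values were 32.9, 44.5 and 57.7 CPM in C57BL/6, 42.1, 58.3 and 72.4 CPM in Winnie and 12.5, 24.3 and 37.5 CPM in Winnie-Prolapse. Of the Winnie libraries 6 of 7 lay above every control, and all 7 Winnie-Prolapse libraries lay below every Winnie library. The log2 change of Maob was 0.48 ± 0.13 (SE; edgeR adjusted p = 0.0183) in Winnie, 1.40-fold and so under the fold limit. It fell 1.70-fold in Winnie-Prolapse against C57BL/6 (−0.76 ± 0.21, adjusted p = 0.00709) and 2.37-fold against Winnie (−1.24 ± 0.23, edgeR adjusted p = 0.0140), both at the looser threshold. In Winnie against C57BL/6 the edgeR adjusted p was 0.179 for Maoa and 0.0776 for Maob with the 3 groups in 1 fit, 0.186 and 0.194 in females alone, and 0.0502 and 0.105 in males alone.

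The ratio of Maob to Maoa separated Winnie from C57BL/6 without overlap. It had a lowest, median and highest value of 0.0361, 0.0630 and 0.0762 in C57BL/6, 0.105, 0.111 and 0.121 in Winnie and 0.0444, 0.0717 and 0.109 in Winnie-Prolapse. The SD of the log2 ratio was 0.08 in Winnie, 0.35 in C57BL/6 and 0.47 in Winnie-Prolapse. The ratio was 1.90-fold higher in Winnie (difference in log2 ratio 0.93; exact permutation test, two-sided, p = 0.000155, the smallest that 7 against 8 libraries can give, adjusted p = 0.00140, and 0.00233 over the 15 tests without Tph2). In Winnie-Prolapse 6 of 7 libraries lay below every Winnie library, and the ratio differed from Winnie (−0.64; exact permutation, adjusted p = 0.00787) and not detectably from C57BL/6 (0.29; exact permutation, adjusted p = 0.355). The sex by group interaction in Winnie did not pass for Maob (edgeR adjusted p = 0.766) or Maoa (edgeR adjusted p = 0.988).

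Slc6a4 (ENSMUSG00000020838; chromosome 11, 76998603 to 77032340, plus strand), the reuptake transporter, lay at 34.7 to 49.0 CPM in 7 of 8 controls and at 7.28 CPM in replicate 7. Its lowest, median and highest values were 27.3, 41.1 and 53.6 CPM in Winnie and 9.27, 17.8 and 36.3 CPM in Winnie-Prolapse. Of the Winnie-Prolapse libraries 5 of 7 lay below every Winnie library, and Slc6a4 fell 1.98-fold at the looser threshold (log2 −0.98 ± 0.26, SE; edgeR adjusted p = 0.0322). It kept that call in 4 of 14 fits without 1 library (adjusted p up to 0.0686). Against C57BL/6 the change was −0.75 ± 0.34 (edgeR adjusted p = 0.0713), and it passed the looser threshold without C57BL/6 replicate 7 (−0.90, adjusted p = 0.00579) and without Winnie-Prolapse replicate 3 (−0.96, adjusted p = 0.0250). The Winnie value was 0.23 ± 0.27 (edgeR adjusted p = 0.555). The ratio of Tph1 to Slc6a4, synthesis over reuptake, had medians of 0.198, 0.242 and 0.265 in C57BL/6, Winnie and Winnie-Prolapse, and no comparison of it passed (exact permutation, adjusted p from 0.441 to 0.909).

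Among the receptors, Htr3a (ENSMUSG00000032269; chromosome 9, 48899213 to 48911099, minus strand), a subunit of the serotonin-gated ion channel that excites enteric neurons, had its lowest, median and highest values at 7.83, 12.2 and 14.8 CPM in C57BL/6, 2.85, 4.32 and 11.9 CPM in Winnie and 0.806, 1.91 and 7.56 CPM in Winnie-Prolapse. In Winnie the highest was replicate 5, and the other 6 libraries, at 5.67 CPM or less, lay below every control, as did all 7 of Winnie-Prolapse. Htr3a fell 2.16-fold in Winnie at the looser threshold (log2 −1.11 ± 0.26, SE; edgeR adjusted p = 0.00946), and without Winnie replicate 5 it was called (−1.44, adjusted p = 0.000179). It fell 3.72-fold in Winnie-Prolapse (−1.90 ± 0.39, edgeR adjusted p = 0.000853). That call was kept in 1 of 15 fits without 1 library, the one without Winnie-Prolapse replicate 3, while 15 of 15 passed the looser threshold with an adjusted p up to 0.00247. Against Winnie the Winnie-Prolapse value was −0.78 ± 0.46 (edgeR adjusted p = 0.283), and −1.29 (adjusted p = 0.0415) without Winnie-Prolapse replicate 3.

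The enteric neuron markers were lower together with Htr3a in both comparisons with C57BL/6. Of 12 such markers 0 were called in Winnie and 12 fell at the looser threshold (edgeR, median log2 fold change −1.23), and 11 were called lower in Winnie-Prolapse (median −2.17). Between Winnie-Prolapse and Winnie 1 of 12 fell at the looser threshold (median −0.88). Their summed level was 145 to 315 CPM in C57BL/6, 47.3 to 164 CPM in Winnie and 26.6 to 96.6 CPM in Winnie-Prolapse. Calb2, a marker of enteric neurons, was the gene most like Htr3a among 13597 across the 22 libraries after group means were taken out (r = 0.918, rho = 0.843, r = 0.845 without the 2 farthest libraries). The part of neuron content in the Htr3a change was not tested. Htr3b, the second subunit of the channel, fell 2.10-fold at the looser threshold in Winnie (log2 −1.07 ± 0.34, SE; edgeR adjusted p = 0.0293) and was called 4.52-fold lower in Winnie-Prolapse (−2.18 ± 0.28, adjusted p = 1.80e-05).

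Htr4 (ENSMUSG00000026322), a receptor that raises cyclic AMP and is found on enteric nerve endings and epithelium, had its lowest, median and highest values at 7.97, 21.2 and 35.5 CPM in C57BL/6, 15.97, 18.6 and 28.4 CPM in Winnie and 6.79, 9.75 and 13.0 CPM in Winnie-Prolapse. All Winnie values lay within the C57BL/6 range, with a log2 change of −0.04 ± 0.22 (SE; edgeR adjusted p = 0.911). In Winnie-Prolapse Htr4 fell 2.17-fold against C57BL/6 at the looser threshold (−1.12 ± 0.24, edgeR adjusted p = 0.00102). It fell 2.11-fold against Winnie (−1.08 ± 0.16, edgeR adjusted p = 0.00787), where the 2 groups did not overlap. The lowest control was replicate 7, and without it the change against C57BL/6 was called (−1.24, edgeR adjusted p = 3.99e-05). Htr4 and Maob made 2 of 8 genes whose groups did not overlap between Winnie-Prolapse and Winnie, where 0.962% of all genes had none. Against C57BL/6, Maoa and Htr3a made 2 of 8 in Winnie-Prolapse, where 16% of all genes had none, and it was 0 of 8 in Winnie, where 1.64% had none.

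Htr2b (ENSMUSG00000026228; chromosome 1, 86099026 to 86111970, minus strand), a receptor of smooth muscle and interstitial pacemaker cells, had its lowest, median and highest values at 0.889, 2.77 and 7.79 CPM in C57BL/6, the highest in replicate 7, 0.662, 1.03 and 2.26 CPM in Winnie and 0.645, 0.917 and 2.09 CPM in Winnie-Prolapse. All 3 groups overlapped. Htr2b fell at the looser threshold 2.53-fold in Winnie (log2 −1.34 ± 0.41, SE; edgeR adjusted p = 0.0262) and 2.78-fold in Winnie-Prolapse (−1.47 ± 0.43, adjusted p = 0.00950), with −0.12 ± 0.31 (adjusted p = 0.837) between Winnie-Prolapse and Winnie. The Winnie call was kept in 12 of 15 fits and lost without Winnie replicate 1, 2 or 6 (edgeR adjusted p up to 0.0589). It was also lost with limma-voom (−1.11 ± 0.42, adjusted p = 0.0628) and, by edgeR, in males alone (adjusted p = 0.0975) and females alone (adjusted p = 0.219). The gene shares exon bases with Psmd1 on the opposite strand, which lay at 74.4 to 172 CPM, and the strand setting of the counting is not given in the sources used here.

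Smooth muscle markers were lower together with Htr2b in both comparisons with C57BL/6. All 10 fell at the looser threshold in Winnie (edgeR, median log2 fold change −0.88) and all 10 were called lower in Winnie-Prolapse (median −1.77), with a summed level of 7905 to 15039.8 CPM in C57BL/6, 2374 to 8999 CPM in Winnie and 1656 to 3856 CPM in Winnie-Prolapse. Between Winnie-Prolapse and Winnie, where Htr2b had −0.12 ± 0.31, 3 of 10 fell at the looser threshold, with a median of −0.86 over the list (edgeR). Relative to Myh11, a smooth muscle myosin, Htr2b did not differ detectably in Winnie from C57BL/6 (log2 −0.05; exact permutation, adjusted p = 0.994), was 1.77-fold higher in Winnie-Prolapse than in C57BL/6 without passing (exact permutation, adjusted p = 0.0873), and was 1.84-fold higher in Winnie-Prolapse than in Winnie (exact permutation, adjusted p = 0.0294, up to 0.0587 without 1 library). The gene most like Htr2b was Etv1, a marker of interstitial pacemaker cells (r = 0.912 within groups, rho = 0.863, r = 0.839 without the 2 farthest libraries). Etv1 fell at the looser threshold in Winnie (−0.96 ± 0.28, SE; edgeR adjusted p = 0.0214) and in Winnie-Prolapse (−1.35 ± 0.30, adjusted p = 0.00136). The other pacemaker markers, Ano1 and Kit, had 0.11 ± 0.23 (edgeR adjusted p = 0.743) and −0.46 ± 0.20 (adjusted p = 0.101) in Winnie, so that 1 of 3 fell there and 3 of 3 in Winnie-Prolapse against C57BL/6. Between Winnie-Prolapse and Winnie, Ano1 (−0.92 ± 0.25, SE, edgeR adjusted p = 0.0360) and Kit (−0.72 ± 0.18, adjusted p = 0.0280) fell at the looser threshold. Etv1 had −0.38 ± 0.20 there (edgeR adjusted p = 0.222). The 3 summed to 186 to 424 CPM in C57BL/6, 227 to 445 CPM in Winnie and 87.4 to 281 CPM in Winnie-Prolapse. The part of muscle and pacemaker cell content in the Htr2b change was not tested.

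Htr1b (ENSMUSG00000049511; chromosome 9, 81628291 to 81633828, minus strand), a receptor that lowers cyclic AMP, had 3 to 19 counts a library in C57BL/6, 3 to 13 in Winnie and 10 to 55 in Winnie-Prolapse. Its lowest, median and highest values were 0.116, 0.184 and 0.688 CPM in C57BL/6, 0.116, 0.236 and 0.417 CPM in Winnie and 0.303, 0.523 and 1.82 CPM in Winnie-Prolapse. Of the Winnie-Prolapse libraries 5 of 7 lay above every Winnie library and 2 of 7 above every C57BL/6 library, whose highest was replicate 7. The low-count filter removed Htr1b from the test. With no filter it passed the looser threshold as higher in Winnie-Prolapse, at 1.57 ± 0.44 (SE; edgeR adjusted p = 0.0103) against C57BL/6 and 1.43 ± 0.39 (adjusted p = 0.0473) against Winnie. It shares exon bases with D430036J16Rik on the opposite strand, which had at most 0.103 CPM.

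Within Winnie-Prolapse, several serotonin genes were lower in the libraries with squamous markers. The 5 libraries with over 100 CPM of these markers had 3.52 to 5.996 CPM of Tph1, against 6.87 and 9.53 CPM in the other 2. The ranges were 137 to 484 CPM against 525 and 549 CPM for Maoa, 12.5 to 27.5 CPM against 32.7 and 37.5 CPM for Maob, and 9.27 to 24.9 CPM against 29.1 and 36.3 CPM for Slc6a4. Htr3a was also lower in all 5 (0.806 to 3.49 CPM against 3.52 and 7.56 CPM) and Htr1b higher in all 5 (0.441 to 1.82 CPM against 0.303 and 0.326 CPM), while Ddc, Htr4 and Htr2b overlapped. Of all 17397 genes tested, 6.73% were lower and 6.4% higher in all 5 than in both others. Without the 5 libraries, 2 Winnie-Prolapse libraries remained and 0 of 8 serotonin genes passed either threshold against C57BL/6 by edgeR, where 2.55% of all 18356 genes were called and 15.7% passed the looser threshold. Ddc then had a log2 change of −0.90 ± 0.30 (SE; edgeR adjusted p = 0.0551), Htr4 −0.97 ± 0.42 (adjusted p = 0.122) and Htr3a −0.89 ± 0.34 (adjusted p = 0.0879), while Tph1 had −0.02, Slc6a4 −0.06, Maob −0.17 and Maoa −0.31. Against Winnie 0 of 9 passed either threshold (edgeR), where 0% of genes were called and 0.00554% passed the looser threshold. The log2 changes against Winnie were −0.32 ± 0.23 for Slc6a4, −0.68 ± 0.21 for Maob, −0.61 ± 0.33 for Ddc and −0.95 ± 0.24 for Htr4 (SE). Htr1b, at 1.43 ± 0.39 with all libraries and no filter, then had 0.38 ± 0.43 against Winnie (SE, edgeR adjusted p = 0.877). The part of squamous epithelium in these differences was not tested. With C57BL/6 replicate 7 and Winnie-Prolapse replicate 6 both left out, 2 of 8 genes were called against C57BL/6 by edgeR, Ddc and Htr4, where 17.5% of all genes were, and 7 passed the looser threshold, all but Tph1, where 33.9% of all genes did.

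Other genes of the pathway were read from lists. Of 10 other serotonin receptors, Htr3b and Htr7 had enough counts for the test against C57BL/6, and Htr7 alone between Winnie-Prolapse and Winnie. Htr7, which raises cyclic AMP, rose 3.17-fold in Winnie-Prolapse at the looser threshold (log2 1.66 ± 0.38, SE; edgeR adjusted p = 0.00179) and had 0.33 ± 0.47 (adjusted p = 0.628) in Winnie. Of 6 genes of vesicle loading and low-affinity uptake, 4 were tested, and 1 fell at the looser threshold in Winnie, 1 in Winnie-Prolapse against C57BL/6 and 0 in Winnie-Prolapse against Winnie. Slc18a2 (VMAT2), the vesicular monoamine transporter of neurons, fell 2.63-fold in Winnie at the looser threshold (−1.40 ± 0.45, SE; edgeR adjusted p = 0.0321) and was called 5.17-fold lower in Winnie-Prolapse (−2.37 ± 0.38, adjusted p = 0.000118). Slc18a1 (VMAT1), the vesicular transporter of enterochromaffin cells, had 4.74 ± 1.13 CPM in C57BL/6 (SD, n = 8), 4.91 ± 0.878 CPM in Winnie and 5.09 ± 0.710 CPM in Winnie-Prolapse (SD, n = 7), with log2 changes of 0.14 ± 0.16 and 0.19 ± 0.15 against C57BL/6 (SE; edgeR adjusted p = 0.559 and 0.304).

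**Figure D4:**
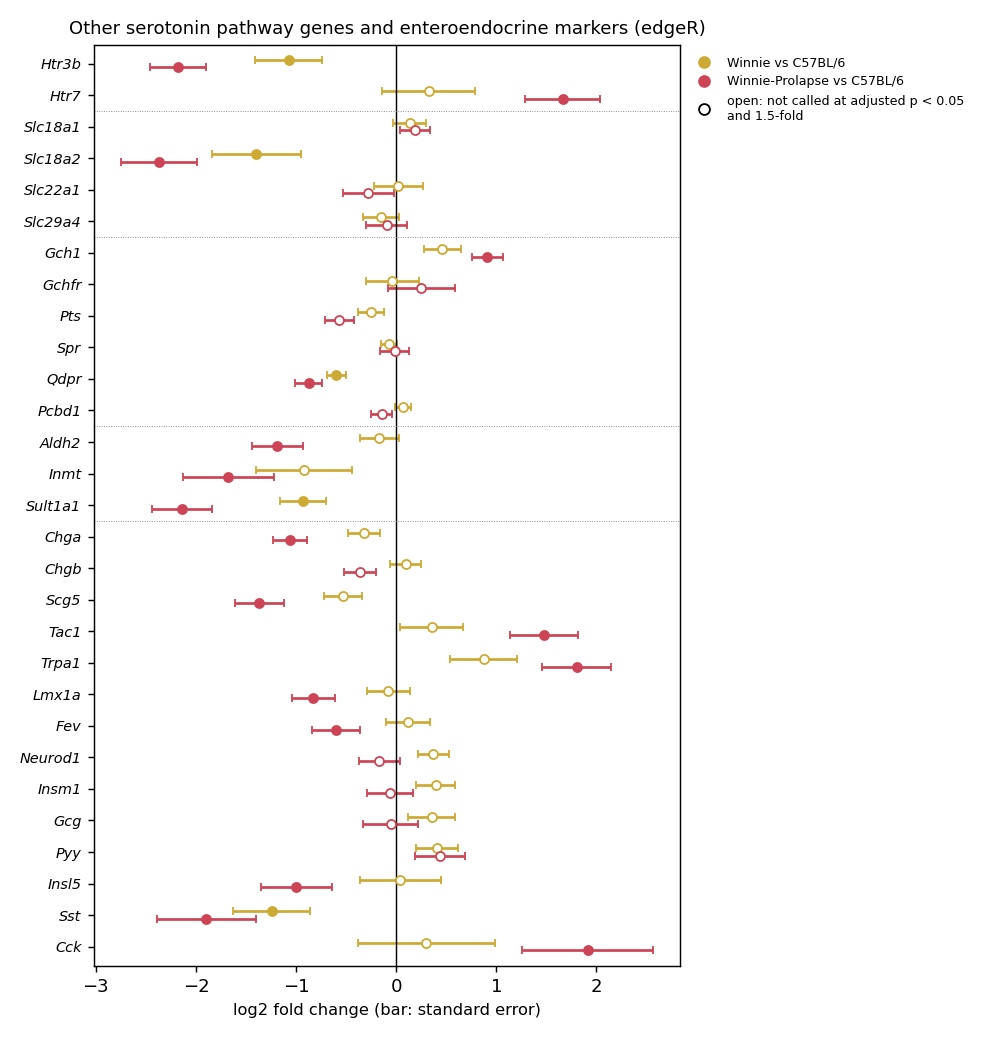
Log2 fold change with its standard error against C57BL/6 for other serotonin receptors, transporters, cofactor enzymes, breakdown enzymes and enteroendocrine markers (edgeR, filled where the adjusted p was under 0.05 with at least 1.5-fold change). In Winnie-Prolapse Slc18a2 lies at −2.37 and Slc18a1 at 0.19.

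Tph1 and Tph2 need tetrahydrobiopterin, and of 6 genes that make, recycle or regulate it 1 was called higher and 1 lower in Winnie-Prolapse against C57BL/6, with 1 lower at the looser threshold in Winnie and 0 past it between Winnie-Prolapse and Winnie (edgeR, smallest unadjusted p = 0.0121). Gch1, which opens its synthesis, rose 1.88-fold (log2 0.91 ± 0.16, SE; edgeR adjusted p = 0.000190), and Qdpr, which recycles it, fell 1.83-fold (−0.87 ± 0.14, adjusted p = 9.30e-05). Qdpr also fell in Winnie at the looser threshold, by 1.52-fold (−0.60 ± 0.09, edgeR adjusted p = 0.00162). Of 5 genes of breakdown and side branches 3 were tested, and in Winnie-Prolapse 1 was called and all 3 fell at the looser threshold, where 1 fell in Winnie and 2 between Winnie-Prolapse and Winnie. Sult1a1, a sulfotransferase, was called 4.41-fold lower (−2.14 ± 0.30, edgeR adjusted p = 4.10e-05), Aldh2, which oxidizes the aldehyde left by the oxidases, fell 2.27-fold (−1.19 ± 0.25, adjusted p = 0.00110), and the methyltransferase Inmt fell 3.20-fold (−1.68 ± 0.45, adjusted p = 0.00583).

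The 14 enterochromaffin and enteroendocrine markers did not move as 1 group. In Winnie 0 were called and 1 fell at the looser threshold, Sst (edgeR, median log2 fold change 0.21 over the list). In Winnie-Prolapse 2 were called lower and 1 higher, and at the looser threshold 6 fell and 3 rose (median −0.26). Chga fell 2.09-fold (−1.06 ± 0.17, SE; edgeR adjusted p = 0.000107) and Scg5 2.58-fold (−1.37 ± 0.24, adjusted p = 0.000285), while Trpa1, an irritant channel of enterochromaffin cells, rose 3.49-fold (1.80 ± 0.35, adjusted p = 0.000518). Between Winnie-Prolapse and Winnie, Chga (−0.74 ± 0.19, SE, edgeR adjusted p = 0.0294), Fev (−0.72 ± 0.17, adjusted p = 0.0243) and Lmx1a (−0.75 ± 0.21, adjusted p = 0.0417) fell at the looser threshold. Cck rose there (1.64 ± 0.49, edgeR adjusted p = 0.0497). The 14 markers summed to 262 to 499.9 CPM in C57BL/6, 284 to 460.2 CPM in Winnie and 246 to 417 CPM in Winnie-Prolapse. Of 10 colon epithelium markers 3 fell and 1 rose at the looser threshold in Winnie-Prolapse and 1 rose in Winnie (edgeR), with a summed level of 9814 to 15447 CPM in C57BL/6, 9820.1 to 14844 CPM in Winnie and 6366 to 12741 CPM in Winnie-Prolapse. Of 10 mast cell markers 6 were tested in Winnie-Prolapse and 4 were called higher by edgeR, with a summed level of 14.6 to 79.1 CPM against 1.56 to 5.23 CPM in C57BL/6 and 4.52 to 22.5 CPM in Winnie. The mast cell genes Cpa3, Tpsab1, Ms4a2 and Fcer1a had too few counts for this test, and in Winnie against C57BL/6 Mcpt4 had too few as well. In Winnie 4 of 5 mast cell markers tested rose at the looser threshold. Of 6 leukocyte markers 3 rose in Winnie and 4 in Winnie-Prolapse at the looser threshold (3 called, edgeR), with a summed level of 287 to 488 CPM in C57BL/6 without replicate 7, 365 to 713 CPM in Winnie and 480.0 to 960.0 CPM in Winnie-Prolapse. Of 4 platelet markers 3 were tested, and 1 rose and 1 fell at the looser threshold (edgeR), with a summed level of 6.08 to 133 CPM against 4.64 to 20.5 CPM in C57BL/6. The part of these cells in the serotonin gene changes was not tested.

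The serotonin genes followed each other in part. After group means were taken out, the highest correlations of log2 CPM over the 22 libraries were those of Maob with Slc6a4 (r = 0.685), Maoa with Maob (r = 0.671) and Slc6a4 with Htr4 (r = 0.670), and the lowest was that of Slc6a4 with Htr1b (r = −0.698). Tph1 correlated with Ddc, the next enzyme, at r = 0.112. The libraries differed in tissue makeup, as given above, and the values are a description. The part of tissue makeup in these correlations was not tested. The genes most like the others by the same measure were Atf3 for Tph1 (r = 0.852, 0.821 without the 2 farthest libraries), Mettl15 for Ddc (r = 0.832, 0.768 without the 2 farthest libraries), Ceacam20 for Maoa (r = 0.904, 0.796 without the 2 farthest libraries), Slc6a8 for Maob (r = 0.899, 0.848 without the 2 farthest libraries), and Unc119 for Slc6a4 (r = 0.940, 0.766 without them), Zan for Htr4 (r = 0.864, 0.755) and Plxnb1 for Htr1b (r = 0.867, 0.748).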

How the data were processed

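Poly(A) RNA of distal colon was sequenced from 22 mice, grouped by their labels. The authors ran the RNAsik pipeline on GRCm38, and the deposited table holds raw counts per gene from featureCounts, without normalization. STAR is among the tools in the submitters' processing notes. The annotation release, the strand setting and the treatment of reads that fit several genes are not given in the sources used here. No 2 libraries of a group agreed within counting noise (lowest chi-square per degree of freedom 28.8).

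The 2 groups of a comparison were fitted with edgeR 4.0.16 in R 4.3.3 (quasi-likelihood F test, TMM factors, filterByExpr, Benjamini-Hochberg adjustment over all genes). The thresholds are those given in the text. In simulated counts for Winnie and C57BL/6, 200 genes at a time were set to change 2-fold and then 4-fold, of which 82 and 169 were called, and for Winnie-Prolapse and C57BL/6 70 and 167, with 0 false calls at the study's limits. At the looser threshold 141 and 191 were recovered for Winnie and 134 and 189 for Winnie-Prolapse. False calls were then 4 and 2 for Winnie and 2 and 7 for Winnie-Prolapse. The simulated counts were drawn independently for each gene, with all other genes unchanged and no library set apart in tissue makeup. The real libraries differ in these points, so that these figures need not hold for them. Ratios of 2 genes used CPM + 0.1 and two-sided exact permutation tests (scipy 1.17.1), adjusted over 18. Gene positions and exon lengths came from GENCODE M21 on GRCm38. The 10 genes and all gene lists were chosen with earlier results of these data known. The rule for named genes took the 10, the 3 most abundant and the called genes of each list, and the 3 genes most like each of the 10 (log2 CPM with a prior count of 2, mean of at least 1); most list genes are given by counts alone, and Htr3b, Htr7, Slc18a1, Inmt, Sst and others were named after their values were seen. The alternatives were library sizes without TMM, DESeq2 1.42.0, voom of limma 3.58.1, no count filter, 10 counts or more in all libraries, sex in the model, each sex alone, the 3 groups fitted together, and each library left out. Leaving out libraries that stood apart, the alternatives of the interaction, and the ratio tests without Tph2, were added after seeing the data.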

Additional observations from a re-analysis of the deposited data

Results flagged for a closer look

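The change of Tph1 from C57BL/6 to Winnie differed between males and females by the interaction test (males minus females −1.78 on the log2 scale, edgeR adjusted p = 0.0368), with the limits given above.

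In 42 groups of 7 or 8 libraries, the highest or lowest library lay far from the rest by Dixon's criterion in 7, where chance gives about 1 in 20. C57BL/6 replicate 7 had the lowest Slc6a4 (7.28 CPM, the others 34.7 to 49.0), the highest Htr2b (7.79 CPM, the others 0.889 to 4.13) and the highest Htr1b (0.688 CPM, the others 0.116 to 0.289). Its smooth muscle markers summed to 15039.8 CPM, against 7905 to 10548 CPM in the other controls. Winnie replicate 5 had the highest Htr3a of its group (11.9 CPM, the others 2.85 to 5.67). Winnie-Prolapse replicate 3, a library with few squamous markers, had the highest Htr3a (7.56 CPM, the others 0.806 to 3.52) and the highest Htr2b (2.09 CPM, the others 0.645 to 1.18). Winnie-Prolapse replicate 6, the library with milk protein genes, had the highest log2 ratio of Tph1 to Slc6a4 (−0.84, the others −2.07 to −1.58).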

How the results depend on the processing

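Of 592 values of single serotonin genes under other settings, 547 kept their direction and side of the threshold, 22 lost a call, 9 gained one and 14 changed sign, and 0 of 51 list levels moved with TMM factors. Most of the 547 were values that stayed uncalled. Only Ddc and Htr3a in Winnie-Prolapse against C57BL/6 had a call to lose. Without 1 library Ddc kept it in 15 of 15 fits and Htr3a in 1 of 15. No paired analysis was possible because the labels give no replicate numbers that pair mice across groups. The causes of the differences below were not tested.

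In Winnie against C57BL/6, where 16 genes were called, DESeq2 called 1262, the fit of 3 groups 199, males alone 130, no filter 68, library size 8, and 0 were called by each of the filter of 10 counts, females alone and limma-voom. The looser threshold gave 2757, its adjusted p without a fold limit 4441, and leaving out 1 library 0 to 677, the highest without Winnie replicate 5. Serotonin genes called went from 0 to 1 with DESeq2, 2 at the looser threshold, 4 at that adjusted p with no fold limit and 0 to 1 without 1 library.

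In Winnie-Prolapse against C57BL/6, where 3186 genes were called, DESeq2 called 5047, females alone 255, males alone 307, the looser threshold 5981, its adjusted p with no fold limit 9135, the libraries without squamous markers 468, and leaving out 1 library 2517 to 3657. Serotonin genes called went from 2 to 3 with DESeq2, the 3 groups in 1 fit and library sizes alone, 0 in either sex alone and without the squamous libraries, 1 with no filter, 6 at the looser threshold with or without the fold limit, and 1 to 2 without 1 library. In Winnie-Prolapse against Winnie, where 0 were called, DESeq2 called 681, the fit of 3 groups 42, females alone 54, the looser threshold 1191, its adjusted p with no fold limit 1489, and leaving out 1 library 0 to 1. Serotonin genes called went from 0 to 2 with DESeq2 and 4 at the looser threshold with or without the fold limit.

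In 1 sex alone the looser threshold was passed in males by Htr3a and Tph1 in Winnie (among 3956 genes). In Winnie-Prolapse males it was passed by Ddc, Htr3a and Htr4 against C57BL/6 (among 4205) and by none against Winnie (0 genes). In that last comparison 2 of 9 serotonin genes and 918 of all 17560 genes had an unadjusted p under 0.05 (edgeR). In females the looser threshold was passed by none in Winnie (1 gene in all). There 5 of 8 serotonin genes and 3315 of all 17260 genes had an unadjusted p under 0.05 (edgeR). In Winnie-Prolapse females the looser threshold was passed by Ddc, Htr2b, Htr3a, Maoa and Maob against C57BL/6 (among 4755). Against Winnie it was passed in females by Ddc, Htr4, Maob, Slc6a4 and Tph1 as lower and Htr1b as higher (among 2492). The difference between the sexes was tested by the interaction alone.

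Signs changed for values that were not called with all libraries. Tph1 was −0.81 in Winnie and 0.0606 in Winnie-Prolapse against Winnie in males alone. In females alone the Winnie value was 0.11 for Ddc and 0.12 for Htr4, which was 0.0357 with limma-voom and −0.17 to 0.0809 without 1 library. Between Winnie-Prolapse and Winnie, without the squamous libraries, Maoa was 0.0972, Htr3a 0.20 and Htr2b 0.47, and Htr2b was 0.22 in males alone and −0.44 to 0.11 without 1 library.

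The Tph1 interaction was −1.69 (adjusted p = 0.0596) with library sizes and edgeR, −1.74 (adjusted p = 0.0517) with limma-voom, −1.77 (adjusted p = 0.000124) with DESeq2, and −1.98 to −1.64 without 1 library. Among the log2 ratios, with 0.5 CPM added in place of 0.1, Tph1 to Chga was 0.53 and Htr2b to Myh11 1.05 in Winnie-Prolapse against C57BL/6 (exact permutation, adjusted p = 0.0294 and 0.0173), Htr2b to Myh11 0.14 in Winnie, and Tph2 to Elavl4 0.81 between Winnie-Prolapse and Winnie (adjusted p = 0.112). With 0.02 CPM, Tph1 to Chga was −0.00171 between these groups. Adjusted over the 15 tests without Tph2, Tph1 to Chga in Winnie (0.51) no longer passed (exact permutation, adjusted p = 0.0548), and no other ratio changed sides. Without 1 library, for both groups set against C57BL/6 (Winnie first) and then for Winnie-Prolapse against Winnie, Tph1 to Chga ran from 0.44 to 0.61, 0.43 to 0.61 and −0.0949 to 0.11, Ddc to Chga from −0.15 to 0.0954, −0.21 to 0.0670 and −0.21 to 0.0674, and Htr2b to Myh11 from −0.22 to 0.0935, 0.65 to 0.97 and 0.74 to 0.99. Tph1 to Slc6a4 ran from −0.35 to 0.13 in Winnie and −0.00376 to 0.48 in Winnie-Prolapse against C57BL/6, and Tph2 to Elavl4 from 0.96 to 1.47 between Winnie-Prolapse and Winnie. Maob to Maoa ran from 0.82 to 0.98 in Winnie.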
